A study of Nothobranchius furzeri with 15 samples.

Results

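A set of 370 genes stood lower in the brains of killifish given the lower of a pair of rotenone doses than in brains of fish given the solvent or the higher dose. The genes were taken from 26739 identifiers in the count table, of which 17956 had a mean count of at least 20 over 14 libraries. A gene was a member when its median level at 15 pM was at least 1 log2 unit below the DMSO median and at least 1 log2 unit below the 150 pM median. Levels are log2(CPM + 1), where CPM is the count of a gene scaled to the same total in every library. The members were thus chosen by their measured levels in these libraries, and the size of the fall at 15 pM is given as a description, with no test.

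All fish were 9-week-old males of GRZ, a short-lived laboratory strain of the turquoise killifish Nothobranchius furzeri, and brain RNA-seq libraries were labelled with DMSO (5 libraries), rotenone 15 pM (4) or rotenone 150 pM (6). DMSO is the solvent control, and the labels name no untreated group. The length and route of treatment, and whether each library is a separate fish, are not stated in the labels, so the spread between libraries may be technical in part. The series text speaks of 5 libraries per group, however, and the titles number 150 pM replicate 1 as 1, the libraries at 15 pM as 2 to 5 and the rest at 150 pM as 8 to 12. That library, called the library in doubt here, entered neither the rule nor the fits, which leaves 5 libraries at 150 pM. Total counts per library ranged from 19401441 to 23210889. In these genes DMSO replicate 1 and the library in doubt lay far from the libraries of the same label, and 15 pM replicate 3 lay nearest to DMSO of its group; counts that these libraries change are given with and without them.

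Rotenone blocks complex I of the mitochondrial respiratory chain, the enzyme that passes electrons from NADH to ubiquinone and pumps protons across the inner membrane. Neurons depend heavily on the ATP made this way, and rotenone at toxic doses is used in animals to model the loss of dopamine neurons. A whole brain holds neurons, glia, ependymal and vascular cells in distinct regions, so a bulk level averages over all of them. Fewer cells of a type and less RNA per cell cannot be told apart in such samples.

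The deposited files pair no identifier with a gene name, and 0 identifiers were found in the RefSeq gene table of the species. The genes are therefore described by their levels, lengths and behaviour across libraries, only 2 identifiers are printed, and neither the brain origin nor any cell type was checked against marker genes.

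Of the 17956 genes, 496 lay at least 1 log2 unit lower at 15 pM than in DMSO, and 370 of these were also that much lower than at 150 pM. The other 126 were not. The same rule in the opposite direction, higher at 15 pM than in both other groups, found 12 genes. The median member lay 1.31 log2 units from the nearer of the other groups, and the range of this smaller gap was 1.004 to 3.65. It was under 1.5 in 249 members, from 1.5 to under 2 in 88 and 2 or more in 33. The members were not set off from other genes at the limit, since the members just inside it had gaps of 1.0039, 1.0039 and 1.0083 and the genes just outside it 0.99897, 0.99866 and 0.99849.

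**Figure D1:**
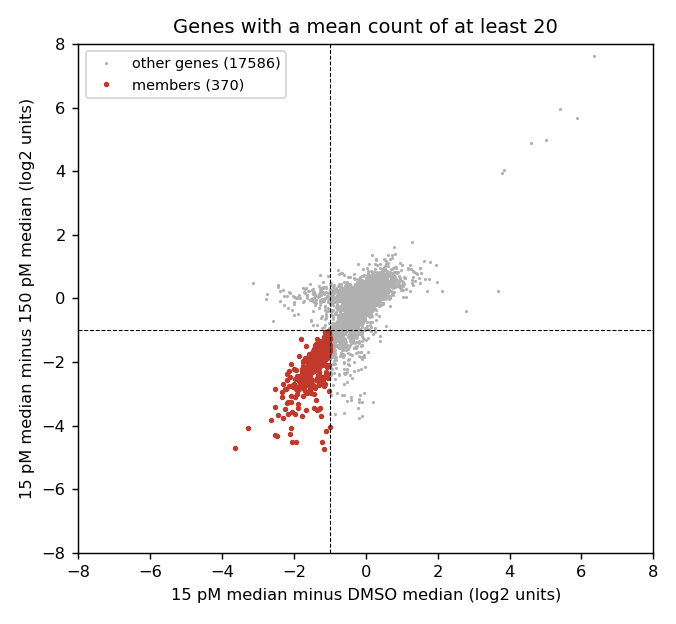
Each point is 1 of 17956 genes, with the 15 pM median minus the DMSO median on the x axis and the 15 pM median minus the 150 pM median on the y axis, both in log2 units; dashed lines mark the limits of the rule. The 370 members (red) fill the lower left corner and continue without a gap into the cloud of other genes, and most lie further from 150 pM than from DMSO.

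The fall had a different depth in each library at 15 pM. Relative to each gene's DMSO median, the median member stood at -1.96 log2 units in 15 pM replicate 1 and at -1.803 in replicate 4, but at -0.94 in replicate 2 and at -0.35 in replicate 3. On the scale of CPM + 1, the first pair of libraries thus held 0.257 and 0.287 times the solvent median, and replicate 3 held 0.785 times. Over all 17956 genes the corresponding medians lay between -0.01 and 0.03 at 15 pM. In 352 of the 370 members replicates 1 and 4 were the lowest pair at 15 pM, against 22.1% of all genes. Replicate 3 was the highest of the 4 libraries in 350 members, against 40.4% of all genes. The 15 pM median of the rule depends on how these 4 libraries differ, so nothing is read from either difference.

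The solvent libraries were not level either. DMSO replicate 1 stood at 0.64 log2 units above the DMSO median in the median member, and DMSO replicate 3 at -0.25, close to 15 pM replicate 3. DMSO replicates 2, 4 and 5 had a median of 0, as the libraries that mostly supply the DMSO median must. DMSO replicate 1 was the highest DMSO library in 336 members and DMSO replicate 3 the lowest in 251, against 21.5% and 18.6% of all genes. The rule used the DMSO median, so these counts are a description too. The 5 libraries at 150 pM lay together, from 0.48 to 0.71 log2 units above the DMSO median. In counts, the members took 0.226%, 0.546%, 0.861% and 0.263% of all counts in 15 pM replicates 1 to 4, 0.898% to 1.805% in DMSO and 1.56% to 1.86% at 150 pM.

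**Figure D2:**
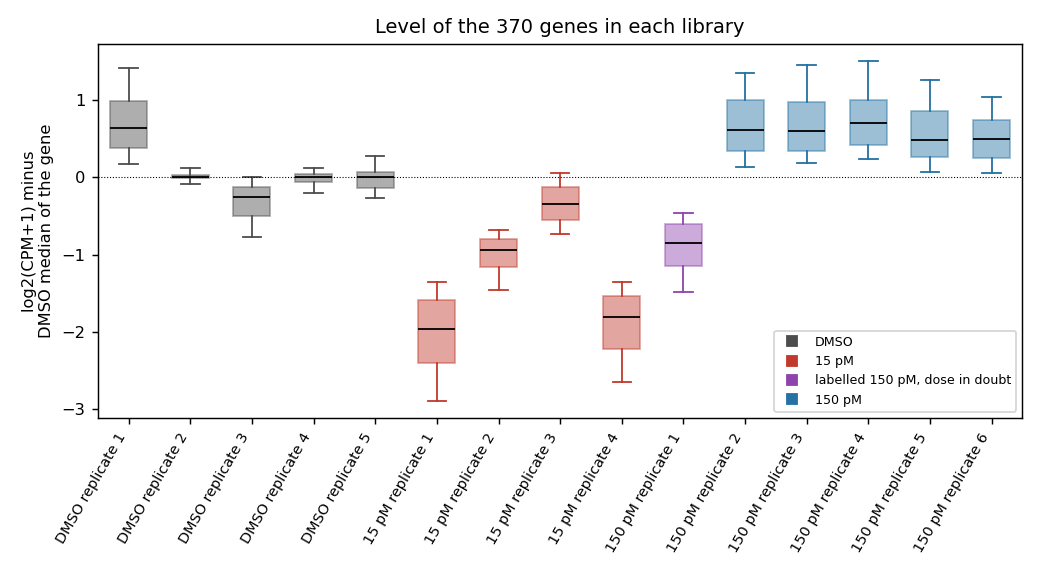
Boxes show the 370 members in each of the 15 libraries as log2(CPM + 1) minus the gene's DMSO median; the box spans the quartiles, the line is the median and the whiskers reach the 10th and 90th percentiles of the genes. The libraries at 15 pM are spread from a median of -1.96 to -0.35, DMSO replicate 1 lies with the libraries at 150 pM, and the library in doubt (purple) lies at -0.85.

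Every 15 pM library lay below every DMSO and 150 pM library in 188 members, 50.8% of them, where 7.47% of all genes did so. The rule used these libraries, so nothing is read from that difference. The overlap in the other members came mainly from 15 pM replicate 3. All 4 libraries at 15 pM together lay below every DMSO library in 188 members (8.96% of all genes). Replicate 3 taken singly also did so in 188 members, whereas replicates 1, 2 and 4 did so in 364, 360 and 367. No share of all genes is given for these single libraries, and the 8.96% for all 4 together is no background for them. A single library meets this condition more easily than 4 together. For the library in doubt, also a single library, the share was 22.5% of all genes, with 340 members. The counts for single libraries are therefore a description, and the part of replicate 3 rests on the values with it set aside. With replicate 3 set aside, the remaining 3 libraries lay below every DMSO and 150 pM library in 358 of 370 members (14.5% of all genes). With DMSO replicate 3, the lowest solvent library, left out and the members chosen again, 288 of 408 members showed no overlap (8.79% of all genes).

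Nfu_g_1_014732, with an implied transcript length of 7296 bases, had the largest gap of all members. It was at 141, 65.1, 30.9, 60.03 and 58.4 CPM in DMSO replicates 1 to 5 and at 1.75, 6.58, 23.6 and 2.13 CPM in 15 pM replicates 1 to 4. At 150 pM replicates 2 to 6 it was at 138, 127, 131, 107 and 122 CPM. The libraries at 15 pM lay below every DMSO and 150 pM library of the rule. Their replicates 1 and 4 were more than 10-fold below replicate 3. DMSO replicate 1 lay above the 4 other DMSO libraries and as high as the highest library at 150 pM. The lowest values rested on 36 and 48 reads. The means were 71.0 ± 41.2 CPM in DMSO (SD, n = 5), 8.52 ± 10.3 at 15 pM (n = 4) and 125 ± 11.5 at 150 pM (n = 5). The DMSO mean was 8.33-fold and the 150 pM mean 14.7-fold the mean at 15 pM.

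Nfu_g_1_007075, with an implied length of 13706 bases, was the most abundant member. Its level was 504, 185, 176, 195 and 240 CPM in DMSO replicates 1 to 5, and 40.5, 98.2, 212 and 44.4 CPM in 15 pM replicates 1 to 4. It was at 534, 501, 507, 425 and 340 CPM in 150 pM replicates 2 to 6. Here the groups overlapped, since 15 pM replicate 3 lay within the DMSO range, and DMSO replicate 1 again lay with 150 pM. The means were 260 ± 139 CPM in DMSO (SD, n = 5), 98.7 ± 79.7 at 15 pM (n = 4) and 461 ± 79.3 at 150 pM (n = 5), so that the DMSO mean was 2.63-fold and the 150 pM mean 4.68-fold that at 15 pM.

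**Figure D3:**
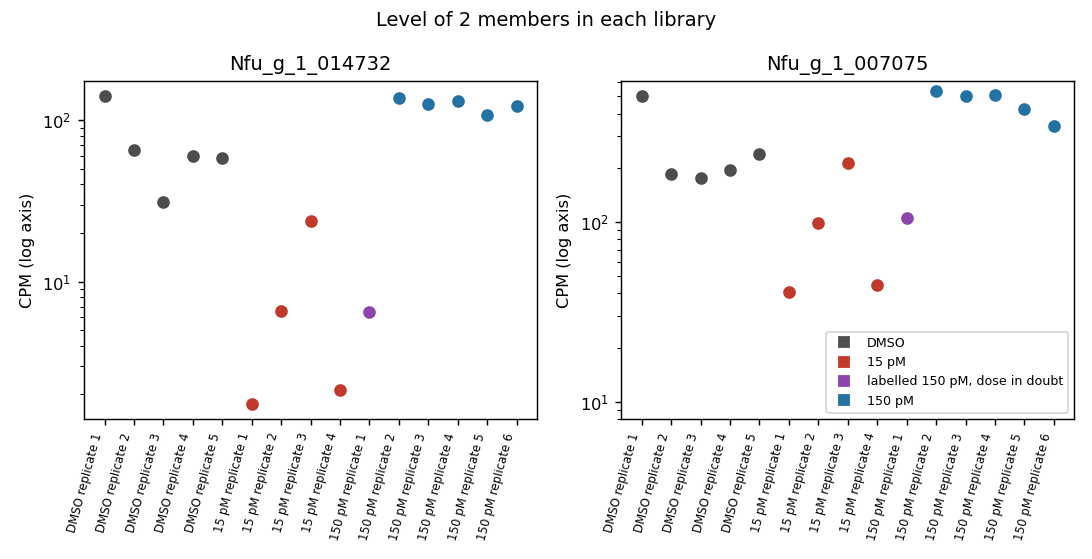
CPM of the member with the largest gap (left) and of the most abundant member (right) in each library, on log axes; each point is 1 library. In both genes 15 pM replicates 1 and 4 are lowest, 15 pM replicate 3 is highest of its group and DMSO replicate 1 lies with the libraries at 150 pM.

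The same order of libraries was seen in the next most abundant members, which are given without identifiers. The second was at 346, 219, 192, 229 and 210 CPM in DMSO replicates 1 to 5 and at 19.3, 101, 153 and 28.8 CPM in 15 pM replicates 1 to 4. The fourth, which also had the second largest gap, was at 374, 192, 161, 198 and 151 CPM in DMSO replicates 1 to 5 and at 3.01, 56.7, 142 and 5.77 CPM in 15 pM replicates 1 to 4. Its lowest value thus lay far below those of the second member, although replicate 3 was near the DMSO range in both. At 150 pM the fourth was at 302 to 388 CPM and the second at 299 to 390 CPM.

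Among the 10 most abundant members, mean CPM ran from 144 to 286 and the smaller gap from 1.11 to 3.28. Among the 10 members with the largest gaps, from 2.33 to 3.65, mean CPM ran from 13.3 to 212. A single gene stood in both lists. At the other end, 39 members had fewer than 10 counts in at least 1 of the 14 libraries and 4 had a count of 0 in at least 1. The least abundant member was at 0.914, 1.67, 1.51, 0.0482 and 1.65 CPM in DMSO and at 2.48, 0.0968, 0.152 and 0.133 CPM at 15 pM. Its 15 pM replicate 1 was the highest of all libraries, so it met the rule by its median while lacking the pattern of the abundant members.

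The members were also compared within groups. The rule used the same 14 libraries through their medians, and the 15 pM median depends on how those 4 libraries differ, so part of the agreement among members is fixed by the choice of genes and the values are a description. For each gene the group mean was subtracted, and the remaining deviations were correlated between genes over the libraries. The mean Pearson correlation over all pairs of members was 0.78 over 14 libraries, with 98.3% of pairs positive (0.70 without 15 pM replicate 3), whereas the mean over all pairs of the 17956 genes was 0.0045. Over the 10 DMSO and 150 pM libraries, none of which received 15 pM, the mean was 0.66 among members and 0.0061 among all genes. DMSO replicate 1 carried a large share of this: over the other 9 of these libraries the mean among members was 0.35, with 79.4% of pairs positive, against 0.0046 among all genes. The genes share libraries, so these correlations describe the libraries and carry no p. Positive and negative correlations cancel in the mean over all genes. That mean is therefore no like background for genes chosen to differ in the same direction.

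The 150 pM libraries were next set against DMSO, a contrast on which the rule sets no limit although both groups enter it. Of the 496 genes low against DMSO, 126 were dropped because their 150 pM median was not far enough above the lower dose. Genes low at both doses are lost this way, so an excess of members higher at 150 pM is partly fixed by the choice. The members' counts and shares in this contrast, here and in the next paragraphs, are therefore a description. The 150 pM median was at or above the DMSO median in 359 members and below it in 11 (48.2% and 51.8% of all genes). The median member was 0.57 log2 units higher, where the median of all genes was -0.0051. In edgeR's quasi-likelihood fit over 14 libraries, 0 of the 370 members passed an adjusted p of 0.05, as did 0 of 19306 genes tested (0% in either direction), and the smallest adjusted p among members was 0.253. The fitted log2 fold change was above 0 in 360 members, with a median of 0.51 and a median SE of 0.35. Each SE given for edgeR was derived as the absolute log2 fold change over the square root of the F statistic. At an unadjusted p under 0.05, 77 members were higher and 1 lower, 20.8% and 0.270% of them, where 6.34% and 6.37% of all genes tested were. DESeq2 called 0 of the 355 members for which it gave a p (0.477% of its genes were called higher and 0.552% lower), and 86 were higher and 1 lower at an unadjusted p under 0.05 (6.08% and 5.55% of its genes).

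DMSO replicate 1 moved this comparison. It lay nearer to the 150 pM median than to the median of DMSO replicates 2 to 5 in 351 members, against 60.1% of all genes. Every 150 pM library lay above every DMSO library in 10 members (1.52% of all genes), and above DMSO replicates 2 to 5 in 291 (8.58%). Without DMSO replicate 1, edgeR called 48 members, all higher at 150 pM, with a median log2 fold change of 0.69, where 2.3% of all genes tested were called higher and 0.613% lower. With any other of the 14 libraries left out the count was 0, and no share of all genes is given for those fits. With a library left out, members were thus called only when this solvent library was absent. In that fit 443 of all genes tested were called higher, so the calls were not confined to the members.

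Nfu_g_1_014732 had a log2 fold change of 0.82 at 150 pM against DMSO (SE 0.54, edgeR adjusted p = 0.558), and Nfu_g_1_007075 one of 0.83 (SE 0.43, edgeR adjusted p = 0.448). The largest difference of medians was 3.57 log2 units, in a gene of 5088 bases. That gene was at 50.6, 3.24, 1.29, 2.75 and 5.79 CPM in DMSO replicates 1 to 5 and at 42.8, 66.7, 62.8, 49.3 and 23.1 CPM in 150 pM replicates 2 to 6. DMSO replicate 1 lay within the range at 150 pM and the 4 other DMSO libraries far below it. In 77 members the 150 pM median was at least 1 log2 unit above the DMSO median, against 1.15% of all genes. The opposite extreme, at -0.53, was a gene of 2290 bases at 14.6, 21.7, 21.2, 13.0 and 9.40 CPM in DMSO and 13.2, 6.34, 8.46, 10.5 and 9.76 CPM at 150 pM, where the groups overlapped. At 15 pM this gene was at 3.93, 2.86, 3.70 and 3.24 CPM, level across the 4 libraries. These lay below every DMSO and 150 pM library of the rule, and the library in doubt lay within their range. The gene thus lacked the high replicate 3 of the abundant members described.

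For the contrasts the rule did use, the calls are a description. In edgeR 276 members were called lower at 15 pM than in DMSO, where 10.4% of all genes tested were, and 361 higher at 150 pM than at 15 pM, where 17.1% were. The median fitted log2 fold changes were -1.39 and 1.91, against 0.02 and -0.05 over all genes tested. The number called against DMSO fell to 161 when 15 pM replicate 1 was left out (5.94% of all genes tested), to 122 with replicate 4 left out (5.29%) and to 150 with DMSO replicate 1 left out (6.91%). Leaving out 15 pM replicate 3 raised it to 365 (16.8%). It was also 161 with the library in doubt counted as 150 pM (8%).

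The library in doubt was not used by the rule, so the choice of genes did not fix its levels. The choice did pull apart the groups it is set against, so the counts and shares that follow are a description. Every 150 pM library lay above DMSO replicates 2 to 5 in 291 members, against 8.58% of all genes. A library level with those DMSO libraries would thus also lie below 150 pM in most members. The shares of all genes are therefore no like background. The label of the library in doubt is 150 pM. In the median member it stood at -0.85 log2 units relative to the DMSO median, 0.553 times that median in CPM + 1. It thus lay between 15 pM replicates 2 and 3, whereas the 5 other libraries labelled 150 pM stood at 0.48 to 0.71. It lay below every one of those 5 libraries in 362 of 370 members, where 23.8% of all genes did, below every DMSO library in 340, where 22.5% did, and below every DMSO and 150 pM library in 339, where 14.6% did. It was nearer to the 15 pM than to the 150 pM median in 338 members, 91.4% of them, against 56.3% of all genes. That share was 64.0% without 15 pM replicate 2 and 64.3% without 15 pM replicate 3, with the members chosen again from the remaining libraries. The library was nearer to the 15 pM than to the DMSO median in 267 members (51.5% of all genes) and within the range of the 4 libraries at 15 pM in 333 (65.2%).

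In Nfu_g_1_014732 the library in doubt was at 6.44 CPM, next to 15 pM replicate 2, and in Nfu_g_1_007075 it was at 105 CPM, again next to 15 pM replicate 2. In the fourth most abundant member it was at 49.5 CPM, and in the gene with the largest excess at 150 pM it was at 1.60 CPM. All of these lay outside the range of the other libraries labelled 150 pM. A single library allows no test, and the dose it received is not inferred from its values.

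**Figure D4:**
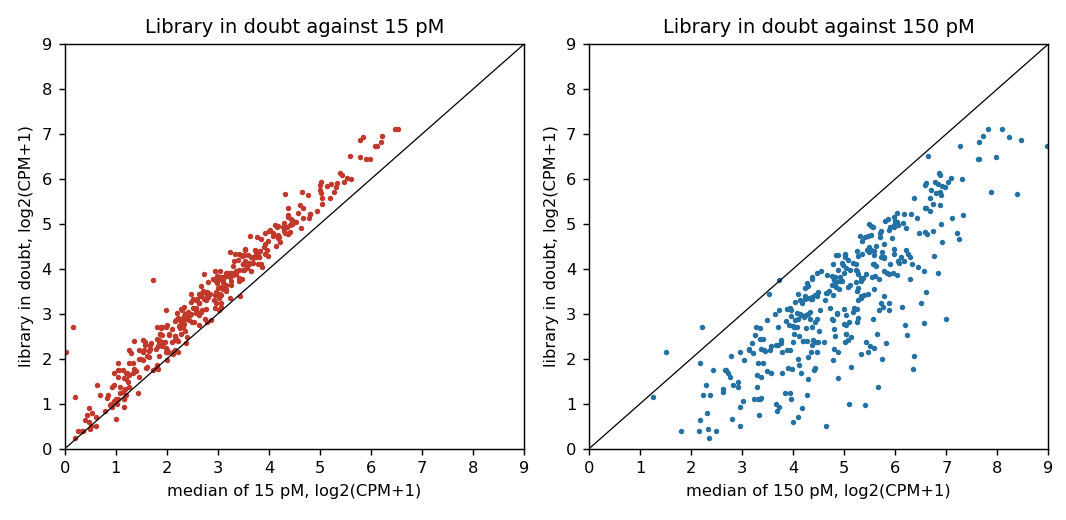
Each point is 1 of the 370 members; the y axis is its log2(CPM + 1) in the library in doubt, and the x axis the median of the 4 libraries at 15 pM (left) or of the 5 other libraries labelled 150 pM (right), with the line of equality. The points follow the line closely and somewhat above it on the left, and lie below it with a wide spread on the right.

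Gene length was not named in the rule, whereas abundance entered it through the minimum mean count and the added 1 CPM. Lengths implied by the counts and the RPKM values had a median of 2857 bases among members (171 to 16388) and 2776 bases among the 17956 genes. All genes were divided by length into 4 classes of nearly equal size, in which 64, 116, 108 and 82 members fell from the shortest to the longest, so 22.2% of members were in a longest class that holds 25% of genes. The shortest class held 17.3% of members. The share in the longest class was near that of all genes, and it ranged from 21.0% to 26.1% with a library left out. The correlation of level with length across genes did move with the members between libraries. Spearman's rho was 0.34 to 0.38 in the 4 libraries at 15 pM, lowest in replicates 1 and 4, 0.37 to 0.39 in DMSO, 0.39 in each library of the rule at 150 pM and 0.36 in the library in doubt. With the length trend of each library removed, 353 genes met the rule, 347 of them members already, and the medians at 15 pM were -1.94, -0.92, -0.33 and -1.77 log2 units in replicates 1 to 4.

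**Figure D5:**
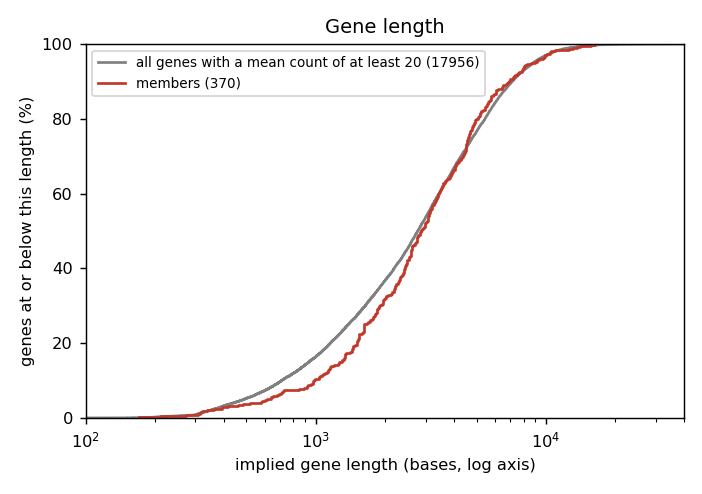
Cumulative share of genes (y axis, %) at or below each implied length (x axis, bases, log axis) for the 370 members and all 17956 genes with a mean count of at least 20. The curves cross near their medians of 2857 and 2776 bases, and the members' curve runs lower among short genes.

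By mean CPM the members had a median of 20.5 and all genes one of 20.7. In 4 classes of equal size by mean CPM, the lowest held 47 members, the next ones 138 and 133 and the highest 52. The added 1 CPM damps differences of genes at low CPM, but its part in these class counts was not tested. The mean count per library was 428 in the median member, so that most members were measured well above the minimum of 20.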

How the data were processed

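Libraries were made with the TruSeq RNA v2 kit, per the labels' protocols, which does not mark strand. Per the submitters' processing notes, the tools were featureCounts 1.4.6-p4, STAR 2.4.1d and CASAVA 1.8.2. The build, annotation and counting settings are not given in the labels, and reads of overlapping genes or close copies cannot be told apart. The authors deposited raw read counts per gene and an RPKM table. Of the deposited RPKM values, 6.67% used the total of their own library as divisor and the others that of another library, so RPKM served only to derive gene lengths, after taking the divisors in turn (median range 6.77e-05 log2 units over 6891 genes). Counts were scaled by library total for the rule. Genes were tested in R 4.3.3 with edgeR 4.0.16 (filterByExpr, TMM, robust quasi-likelihood F test, 3 groups in 1 model, 14 libraries, Benjamini-Hochberg over 19306 genes), with DESeq2 1.42.0 as an alternative. The edgeR fit was tried on counts simulated with genes drawn independently, unlike the members, which varied together. For 150 pM against DMSO, 77.8% of 2-fold and 65% of 1.5-fold changes were called, with 4 false calls. The changed genes were drawn at random from all genes tested, so these shares do not give the recovery among the members. Length trends were removed with lowess (fraction 0.3) in statsmodels 0.14.6.

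The members were chosen with earlier results of these data known. The 2 identifiers printed follow a rule: the most abundant member, and the largest gap among members with at least 1 mean CPM and no overlap. Other members described were chosen after their values were seen. Replicates are numbered in listing order and pair no libraries. Lists of cell type markers were not used, since 0 identifiers matched a name.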

Additional observations from a re-analysis of the deposited data

Results flagged for a closer look

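There were 9 sets of values, each a labelled group for the median over members or for 1 of the 2 identifiers. Dixon's gap test set a single library apart in 4 of them. The sets share libraries and the 2 identifiers are members, so the rate of 1 in 20 for independent sets does not apply. In the median member DMSO replicates 2, 4 and 5 stood at 0 because levels are relative to the DMSO median. The gap of DMSO replicate 1 there is thus partly fixed by the scale. DMSO replicate 1 was high, at 0.64 log2 units relative to the DMSO median in the median member and at 504 CPM for Nfu_g_1_007075. The library in doubt, 150 pM replicate 1, was low among the 6 libraries labelled 150 pM, at -0.85 log2 units in the median member and at 6.44 CPM for Nfu_g_1_014732. None of the 4 libraries at 15 pM was set apart by this test, although their medians ran from -1.96 to -0.35.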

How the results depend on the processing

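The number of members depended on 15 pM replicates 1 and 4: it was 157 without either, 153 of them original members each time, and 575 and 572 without replicates 2 and 3, in a range of 157 to 575 over all libraries left out. It was 193 with a pseudocount of 4 CPM, 663 at a limit of 0.75 and 121 at 1.5 log2 units, and 188 with the library in doubt counted as 15 pM (183 original). Members without overlap ranged from 68 (of 157, without 15 pM replicate 1 or 4; 8.09% and 7.86% of all genes) to 545 (of 572, without 15 pM replicate 3; 14.6%) with a library left out. They were 100 of 193 with 4 CPM (7.47% of all genes), 33 of 368 with the library in doubt counted as 150 pM (4.41%) and 77 of 188 counted as 15 pM (4.94%). The share nearer to 15 pM in the library in doubt was 96.4% with 4 CPM and 64.0% to 96.2% with a library left out. The share of long genes was 30.1% with 4 CPM. With that pseudocount the medians of 150 pM replicates 1 and 4 were -0.64 and 0.58. Calls ranged from 0 to 48 members for 150 pM against DMSO, and from 122 to 365 for 15 pM against DMSO with a library left out; the latter was 161 with the library in doubt counted as 150 pM. Of 231 alternative values, 202 stayed near the value reported. Near means within 1.5 times for counts of genes, the 95% Wilson interval for shares of members and 1 SD between libraries for levels. The levels of 0 in DMSO replicates 2, 4 and 5 follow from the scale, so that they stayed near tells nothing. None of the other levels changed sign, and counts and shares have no sign to change. The causes were not tested. No paired analysis was possible because the labels give no number shared between libraries of different groups that marks a pair. Depth limits the 39 members with under 10 counts in a library.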
